A study of Mus musculus with 6 samples.

Results

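The 10 genes described here encode the glucose transporter GLUT1 (Slc2a1) and enzymes of glycolysis: the hexokinases Hk1 and Hk2, the phosphofructokinase subunits Pfkl and Pfkp, aldolase A (Aldoa), phosphoglycerate kinase 1 (Pgk1), enolase 1 (Eno1), the muscle-type pyruvate kinase (Pkm) and lactate dehydrogenase A (Ldha). They were chosen by name for their place in the pathway, with earlier results of these data known, were matched by Ensembl identifier and are 10 of the 22556 genes with values. All 10 passed the filter on low values, a mean of at least 1 TPM (a level corrected for transcript length and library size) over the 6 libraries.

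RNA-sequencing of whole pancreas was done in 3 groups of 2 wild-type C57BL/6 mice with a labelled age of 8 weeks. Saline mice received saline. Acute pancreatitis (AP) mice received caerulein, 10 hourly injections of 200 μg/kg. PolyI:C-pretreated AP mice received 10 mg/kg polyI:C before the same caerulein course and are called pretreated mice. Per the study's methods, mice were fasted for 8 h and were killed 24 h after the first caerulein injection, and polyI:C was given either 1 h or 8 h ahead of caerulein, with the interval of the sequenced mice not named there. Caerulein is a peptide that acts like cholecystokinin, and an excess of it injures acinar cells, the enzyme-secreting cells that make up most of the pancreas. PolyI:C is a synthetic double-stranded RNA that activates Toll-like receptor 3. No group with polyI:C alone was analysed here.

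Glycolysis turns glucose into pyruvate in the cytosol and yields ATP without oxygen, and lactate dehydrogenase then converts pyruvate to lactate. Most steps have several paralogous enzymes, and cells differ in which they use: liver and islet cells rely on GLUT2, whereas proliferating cells and activated macrophages are known for high GLUT1, hexokinase and lactate dehydrogenase A.

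Upstream sequence is shown for 3 of the 10 genes: Ldha and Pgk1, which rose in AP mice, and Hk2, whose change had the opposite direction. Each is the 250 bases before a RefSeq start of the gene (build GRCm38.p6), written 5′ to 3′ on the gene's strand. Capitals mark ACGTG or GCGTG on either strand, the core that hypoxia-inducible factor binds. CACGTG, the core of the E-box bound by Myc, contains ACGTG on both strands.
Ldha (chr7:46845554-46845803, plus strand): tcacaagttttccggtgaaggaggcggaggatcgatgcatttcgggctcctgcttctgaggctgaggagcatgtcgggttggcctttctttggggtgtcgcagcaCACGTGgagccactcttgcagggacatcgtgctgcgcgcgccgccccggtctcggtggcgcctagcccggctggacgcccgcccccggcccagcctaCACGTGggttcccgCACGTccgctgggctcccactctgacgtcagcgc
Pgk1 (chrX:106186850-106187099, plus strand): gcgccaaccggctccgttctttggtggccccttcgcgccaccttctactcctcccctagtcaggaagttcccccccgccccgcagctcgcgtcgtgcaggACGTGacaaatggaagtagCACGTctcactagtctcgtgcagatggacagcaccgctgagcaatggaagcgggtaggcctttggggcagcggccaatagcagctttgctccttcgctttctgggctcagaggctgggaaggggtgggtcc
Hk2 (chr6:82774455-82774704, minus strand): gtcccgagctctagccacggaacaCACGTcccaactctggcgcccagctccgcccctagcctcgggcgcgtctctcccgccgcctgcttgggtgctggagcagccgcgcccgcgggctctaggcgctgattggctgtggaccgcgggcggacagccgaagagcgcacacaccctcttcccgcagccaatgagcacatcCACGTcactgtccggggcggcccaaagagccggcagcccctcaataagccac

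The Ldha window held 5 matches to these cores counted on both strands and 2 copies of CACGTG. The Pgk1 window held 2 matches and the Hk2 window 2. Each of the 10 genes had a RefSeq start with ACGTG or GCGTG in this window, as did 41.5% of 27025 genes with a promoter entry. A gene counted if any of its starts matched, which favours genes with several starts, such as Aldoa and Eno1 with 3 each. A start of Aldoa, of Hk1 and of Pkm held no match, and 38.6% of all 32851 starts held one. CACGTG stood before a start of 1 of the 10, Ldha, and of 6.86% of all genes. The other Ldha start, not shown, held 1 match to the cores and no CACGTG. Both cores contain CG, and the windows shown for Ldha, Pgk1 and Hk2 were 67.2%, 62.8% and 69.6% G or C. The shares over all genes and starts were not matched for base composition. These matches describe letters only, and no binding was measured.

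Estimated from the spacing of low TPM values, the saline libraries held 3329145 and 3965221 reads and the other 4 held 6868966 to 10757856. The lowest estimated number of reads behind a value of the 10 genes was 29 for Hk1 and 480 for Pkm, so Hk1 was measured less precisely. The 15 genes above 1% of any library held 27.6% to 30.4% of TPM in saline mice and 15.4% to 19.0% in the other mice. TPM adds up to a fixed total, and the median log2 fold change of all 16814 genes tested was 0.45 in AP against saline mice, 0.04 in pretreated against AP mice and 0.48 in pretreated against saline mice. Median-of-ratios scaling brought these to 0.06, 0.02 and 0.06. Summed over the 5 acinar markers with values, the level was 872 to 1056 TPM in saline mice, then 291 to 342 in AP and 643 to 662 in pretreated mice, and over 7 duct markers it was 269 to 301, 2357 to 2371 and 1984 to 2147 TPM. In saline mice the acinar sum was carried by Bhlha15, Amy2a5 and Rbpjl, which were lower in AP mice. The acinar transcription factor genes Ptf1a (44.5 and 40.8 TPM in saline, 55.2 and 43.4 TPM in AP, 67.3 and 98.3 TPM in pretreated mice) and Nr5a2 (92.4 and 97.0, 107 and 105, 165 and 145 TPM) were not lower in AP mice. Nr5a2 was the highest of the 5 markers in AP mice. In whole tissue, fewer cells of a type and less RNA per cell cannot be told apart.

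The library of pretreated replicate 2 stood apart. Genes of intestinal epithelium, a list of 10 drawn up after the values were seen, summed to 3680.3 TPM there and to between 0.958 and 3.81 TPM in the other 5 libraries, where 4 of the 10 were listed at 0 throughout. Results on pretreated mice are given with and without that library where it changes them.

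The first comparison asked what caerulein pancreatitis did to the pathway. Of the 10 genes, 8 were raised in AP mice and 0 were reduced (limma on log2(TPM + 0.5), at least a 2-fold change with a Benjamini-Hochberg adjusted p no higher than 0.05). Among all genes tested, 18.2% were raised and 4.03% reduced by the same rule. Without the demand for a 2-fold change, 9 of the 10 were raised and 1, Hk2, was reduced, against 33.0% and 7.39% of all genes. The median log2 fold change of the 10 was 1.40, against 0.45 for all genes. Summed over the 10 genes, the level was 429 ± 5.04 TPM in saline mice and 1107 ± 41.9 TPM in AP mice (SD, n = 2), a ratio of 2.58.

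The count depended on the scaling. With median-of-ratios scaling the sums were 521 and 998, and 5 of the 10 genes were raised and 1 reduced. Over all genes the same change of scaling moved the counts from 3053 raised and 677 reduced to 1590 raised and 1204 reduced. No gene of the 10 changed direction.

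**Figure D1:**
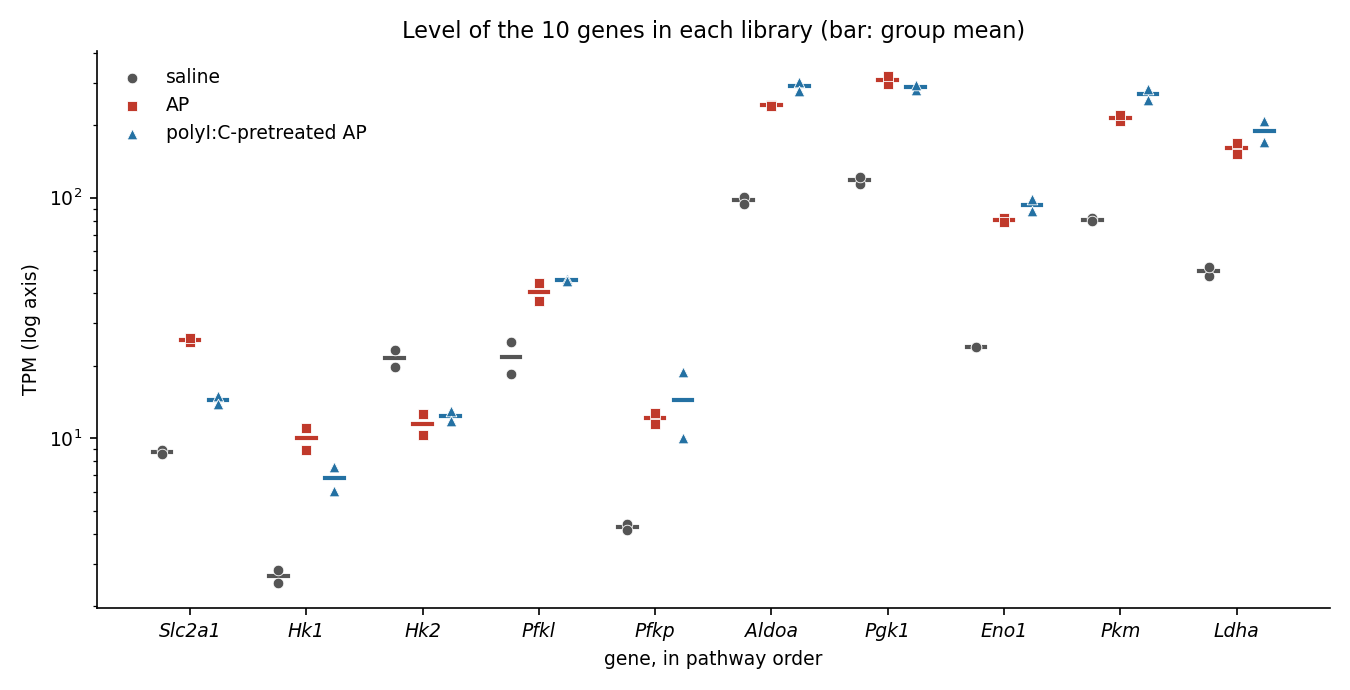
TPM (log axis) of the 10 genes in each of the 6 libraries, in pathway order, with a point for each mouse and a bar for the mean of the 2 mice of a group. In 9 genes both AP mice lie above both saline mice, a separation whose share over all genes is not given here. In Hk2 the saline mice, at 23.2 and 19.8 TPM, lie above the AP mice, at 10.3 and 12.6 TPM.

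Glucose uptake and trapping changed unevenly. Slc2a1 (ENSMUSG00000028645, chromosome 4, 119108711 to 119137983, GRCm38), the widely expressed basal glucose transporter, had 8.96 and 8.57 TPM in saline mice, 25.0 and 26.2 TPM in AP mice and 14.9 and 13.9 TPM in pretreated mice. The groups did not overlap, and the pretreated mice lay between the others. In AP against saline mice Slc2a1 rose by 1.49 ± 0.15 on the log2 scale (SE; adjusted p = 0.00056, limma), or 2.82-fold.

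Hk1 (ENSMUSG00000037012, chromosome 10, 62268855 to 62379908), the hexokinase found in most tissues, had 2.51 and 2.83 TPM in saline mice, 8.94 and 11.0 TPM in AP mice and 6.03 and 7.62 TPM in pretreated mice. The groups again did not overlap and stood in the same order as for Slc2a1. Hk1 rose by 1.72 ± 0.19 on the log2 scale in AP mice (adjusted p = 0.0008, limma).

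Hk2 (ENSMUSG00000000628, chromosome 6, 82725025 to 82774454), the inducible hexokinase of muscle and of proliferating cells, moved the other way. It had 23.2 and 19.8 TPM in saline mice, 10.3 and 12.6 TPM in AP mice and 12.9 and 11.7 TPM in pretreated mice. Both caerulein groups lay below the saline mice and overlapped each other. The log2 fold change in AP mice was -0.88 ± 0.16 (adjusted p = 0.0054, limma), short of 2-fold, and with median-of-ratios scaling it was -1.30 and passed both criteria.

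The phosphofructokinase subunits form the enzyme of the committing step. Pfkl (ENSMUSG00000020277, chromosome 10, 77986947 to 78010083), the liver-type subunit, had 18.5 and 25.0 TPM in saline mice, 37.2 and 44.0 TPM in AP mice and 45.7 and 45.2 TPM in pretreated mice. Pfkp (ENSMUSG00000021196, chromosome 13, 6579768 to 6648777), the platelet-type subunit, had 4.39 and 4.14 TPM, 11.4 and 12.8 TPM and 9.97 and 18.8 TPM in the same order. Saline mice were lowest for both subunits, and the caerulein groups overlapped for Pfkp.

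In AP mice the log2 fold change was 0.90 ± 0.16 for Pfkl (adjusted p = 0.0054, limma), short of 2-fold, and 1.40 ± 0.27 for Pfkp (adjusted p = 0.0065). The call of Pfkp was lost without either saline mouse and without either AP mouse, and with quantile normalization or limma-voom, with an adjusted p from 0.0044 to 0.1 over the alternatives.

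The later steps held the abundant transcripts, and all 5 of their genes rose in AP mice. Aldoa (ENSMUSG00000030695, chromosome 7, 126795234 to 126800751), which splits fructose bisphosphate, had 101 and 94.3 TPM in saline mice, 243 and 242 TPM in AP mice and 303 and 279 TPM in pretreated mice. Pgk1 (ENSMUSG00000062070, chromosome X, 106187100 to 106203699), which carries out the first step that yields ATP, had 114 and 122 TPM, 298 and 320.3 TPM and 279.9 and 295 TPM. Eno1 (ENSMUSG00000063524, chromosome 4, 150236721 to 150248879), which makes phosphoenolpyruvate, had 23.9 and 24.01 TPM, 82.0 and 79.4 TPM and 88.3 and 98.6 TPM. In each the saline mice stood below the other 4 mice.

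Pkm (ENSMUSG00000032294, chromosome 9, 59656368 to 59679375), which makes pyruvate, had 82.1 and 80.1 TPM in saline mice, 209 and 219.6 TPM in AP mice and 255 and 283 TPM in pretreated mice. Ldha (ENSMUSG00000063229, chromosome 7, 46841475 to 46855627), which makes lactate, had 47.2 and 51.5 TPM, 152 and 169 TPM and 170.0 and 208 TPM. Both were lowest in saline mice, and the pretreated mice lay above the AP mice without overlap.

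The log2 fold changes of these genes in AP mice were 1.31 ± 0.09 for Aldoa, 1.39 ± 0.09 for Pgk1, 1.40 ± 0.09 for Pkm, 1.69 ± 0.13 for Ldha and 1.73 ± 0.10 for Eno1, with limma adjusted p between 8.3e-05 and 0.00019. Relative to the median of all genes, the changes were 0.86 for Aldoa and 1.28 for Eno1. With median-of-ratios scaling Aldoa was at 0.88, Pgk1 at 0.96 and Pkm at 0.97, which no longer reached 2-fold.

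Some of these transcripts share sequence with other genes. Of the 100-base stretches of the gene's transcripts in GENCODE M21, 51.7% for Pgk1, 20.4% for Eno1, 12.3% for Pkm and 4.66% for Pfkp also occurred in another gene. How reads on shared stretches were assigned is not given in the sources used here, so the levels of these 4 genes are uncertain to that extent. Eno1b, a copy of Eno1, had at most 0.780 TPM in any library. For the other 6 genes at most 0.627% of stretches were shared.

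**Figure D2:**
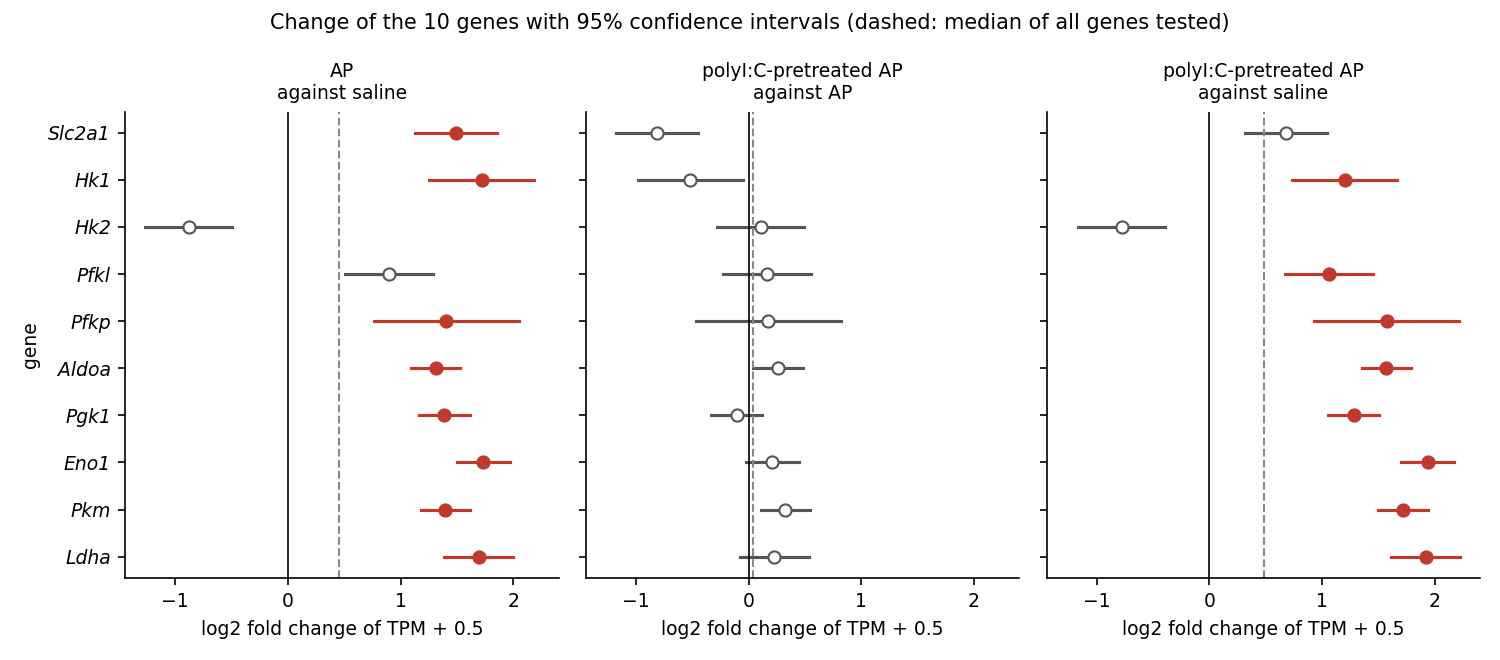
Log2 fold change of TPM + 0.5 for the 10 genes in the 3 comparisons, as points with 95% confidence intervals from limma, filled red where the gene was raised. The dashed line is the median of all genes tested. In pretreated against AP mice no gene is called, and Slc2a1 lies farthest from 0, at -0.81.

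The second comparison asked whether polyI:C pretreatment altered the pathway in pancreatitis. Of the 10 genes, 0 were raised and 0 reduced in pretreated against AP mice by limma. Few genes were called at all: 0.440% of all genes were raised and 0.404% reduced, or 0.714% and 0.517% without the 2-fold demand. At an unadjusted p of at most 0.05, 4 of the 10 passed, Slc2a1 and Hk1 downward and Aldoa and Pkm upward, against 7.83% of all genes upward and 6.07% downward. The summed level was 1107 ± 41.9 TPM in AP mice and 1223 ± 52.5 TPM in pretreated mice (SD, n = 2), a ratio of 1.10. The median log2 fold change of the 10 was 0.17, against 0.04 for all genes.

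Slc2a1 differed most, with a log2 fold change of -0.81 ± 0.15 and a 95% confidence interval of -1.17 to -0.45 (adjusted p = 0.068, limma). Its adjusted p ran from 0.018 with limma-voom on estimated reads to 0.42 without AP replicate 2, so the side of the threshold depended on the method. Hk1 had a log2 fold change of -0.52 ± 0.19 (adjusted p = 0.31, limma). Pkm had 0.33 ± 0.09 (adjusted p = 0.18) and Aldoa 0.26 ± 0.09 (adjusted p = 0.28). These 4 changes did not pass the correction.

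For the other 6 genes the 95% intervals of the log2 fold change included 0. They were -0.28 to 0.49 for Hk2, -0.23 to 0.56 for Pfkl, -0.47 to 0.82 for Pfkp, -0.33 to 0.12 for Pgk1, -0.03 to 0.44 for Eno1 and -0.08 to 0.53 for Ldha. A 2-fold change in either direction lay outside each of them. Without the library with intestinal genes the estimate for Pfkp went from 0.17 to -0.27.

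Slc2a1, Hk1 and the summed monocyte and macrophage markers were all highest in AP mice. Summed over 8 monocyte and macrophage markers, of which none was at 0 in every library, the level was 364 to 526 TPM in saline mice, then 2308 to 2564 in AP and 388 to 482 in pretreated mice. Lyz2, the lysozyme gene, made up most of that sum in saline mice (444 and 307 TPM) and in AP mice (1891 and 2118 TPM). In pretreated mice Lyz2 had 203 and 119 TPM, below Cd14, the endotoxin co-receptor, at 216 and 209 TPM. Cd14 had 15.7 and 13.9 TPM in saline mice and 218 and 222 TPM in AP mice. Of the 8 markers 7 were raised in AP against saline mice, while 18.2% of all genes were raised. Between the caerulein groups 4 were reduced with pretreatment and 7 with limma-voom, where 68 and 213 of all genes were reduced. The median log2 fold change of the 8 markers was -1.89, and -1.93 without the library with intestinal genes. Against saline mice 3 were raised in pretreated mice and 2 reduced, beside 16.9% and 2.97% of all genes. The median of the 8 markers was 0.22 there, 0.27 without that library and -0.15 with median-of-ratios scaling. Without that library fewer of the 8 were called reduced in both comparisons of pretreated mice, with fewer samples in the fit. The 6 neutrophil markers with values summed to 5.15 to 16.6, 57.9 to 68.2 and 20.1 to 41.8 TPM, and the 5 stellate cell and fibroblast markers to 60.1 to 114, 373 to 418 and 226 to 248 TPM. The part of these cells in the levels of Slc2a1 and Hk1 was not tested.

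**Figure D3:**
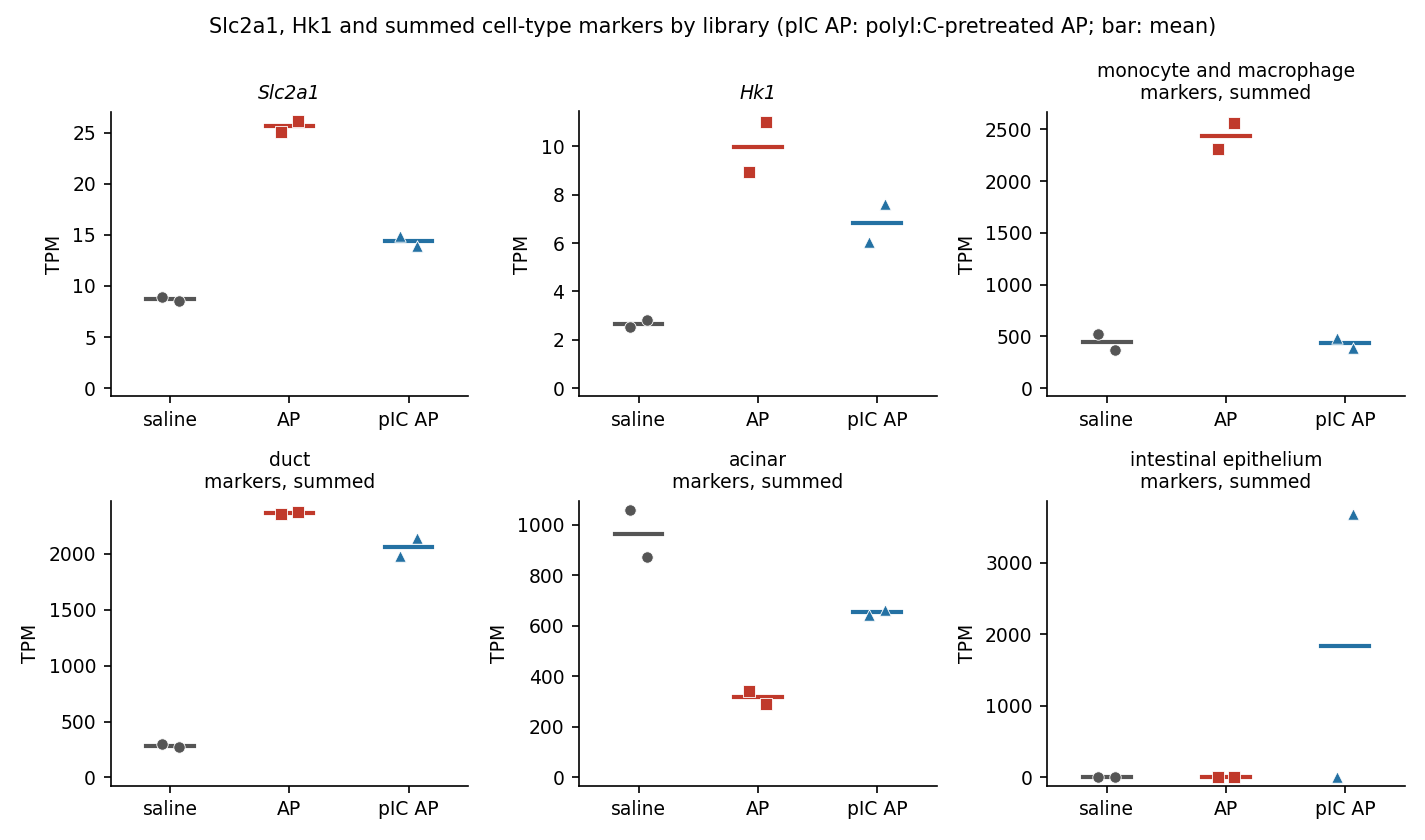
TPM of Slc2a1 and Hk1 and summed TPM of 4 marker lists in each library (points) with group means (bars); pIC AP stands for pretreated mice. Slc2a1, Hk1 and the monocyte and macrophage markers are highest in AP mice, and the intestinal epithelium markers reach 3680.3 TPM in 1 pretreated library.

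The third comparison set pretreated mice against the same saline libraries. Of the 10 genes, 8 were raised and 0 reduced by limma, against 16.9% and 2.97% of all genes, and without the 2-fold demand 9 were raised and 1 reduced, against 33.4% and 5.80%. The median log2 fold change was 1.43, against 0.48 for all genes. Eno1 (1.94 ± 0.10), Ldha (1.92 ± 0.13) and Pkm (1.72 ± 0.09) had the largest changes of the 10. Pfkl was raised here, by 1.06 ± 0.16 (adjusted p = 0.0029, limma). Slc2a1 was higher by 0.68 ± 0.15 (adjusted p = 0.013, limma) and Hk2 changed by -0.77 ± 0.16 (adjusted p = 0.0096, limma), both short of 2-fold. Over the alternatives the change of Slc2a1 ran from 0.17 to 0.73, beside the median of 0.48 for all genes in the main fit.

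Without the library with intestinal genes the median was 1.19, Pfkl was at 1.07 and Pfkp went from 1.58 to 1.14. Without the other pretreated library the median was 1.435. The call of Pfkl was lost in 7 of 20 alternatives, among them without either pretreated mouse and without saline replicate 1. With median-of-ratios scaling 5 genes were raised (Pfkp, Aldoa, Eno1, Pkm and Ldha) and Hk2 was reduced, while all genes went from 2838 raised and 500 reduced to 1339 and 969.

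The share of each paralog within its step does not depend on scaling between libraries. With 2 mice per group an exact permutation test cannot go below a two-sided p of 0.333, so shares are given as values. Ldha made up 61.4% and 54.0% of the summed TPM of Ldha, Ldhb and Ldhc in saline mice, 91.7% and 91.8% in AP mice and 90.0% and 92.9% in pretreated mice. Both caerulein groups stood above the saline mice. Ldhb, the heart-type subunit, fell from 19.7 and 21.7 TPM in saline mice to 8.46 and 11.3 TPM in AP mice (log2 fold change -1.05 ± 0.27, adjusted p = 0.02, limma). The call of Ldhb was lost without saline replicate 2 and without either AP mouse.

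Eno1 took 54.7% and 65.5% of enolase TPM in saline mice, 90.6% and 90.7% in AP mice and 85.8% and 92.9% in pretreated mice. The muscle enolase Eno3 had 18.6 and 12.3 TPM in saline mice and 6.99 and 7.52 TPM in AP mice.

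Among the hexokinases, Hk2 was above Hk1 in every library, by a margin that was smallest in AP mice. Hkdc1, a hexokinase domain gene, was raised in AP mice (1.21 ± 0.22, adjusted p = 0.005, limma), from 6.80 and 7.57 TPM to 19.0 and 15.6 TPM. That call was lost with median-of-ratios scaling, quantile normalization and limma-voom and without either AP mouse. Hk3, the hexokinase of myeloid cells, was raised as well (2.05 ± 0.39, adjusted p = 0.0063), from 0.819 and 0.504 TPM to 3.75 and 4.87 TPM, and had 1.42 and 1.81 TPM in pretreated mice. The Hk3 call was lost without AP replicate 2. Like Slc2a1 and Hk1, Hk3 was highest in AP mice, and the part of myeloid cells in it was not tested.

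Pfkl held 35.2% and 37.7% of phosphofructokinase TPM in saline mice and 47.8% and 53.1% in AP mice, and the muscle-type Pfkm 56.5% and 56.1% and 37.6% and 31.4%. Slc2a1 held 48.7% and 44.0% of the summed TPM of Slc2a1 to Slc2a4 in saline mice, 75.7% and 79.3% in AP mice and 70.7% and 24.3% in pretreated mice. The last share came with 41.6 TPM of Slc2a2, which encodes GLUT2, in the library with intestinal genes. Pgk1 and Pkm were nearly the whole of their steps in every library.

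**Figure D4:**
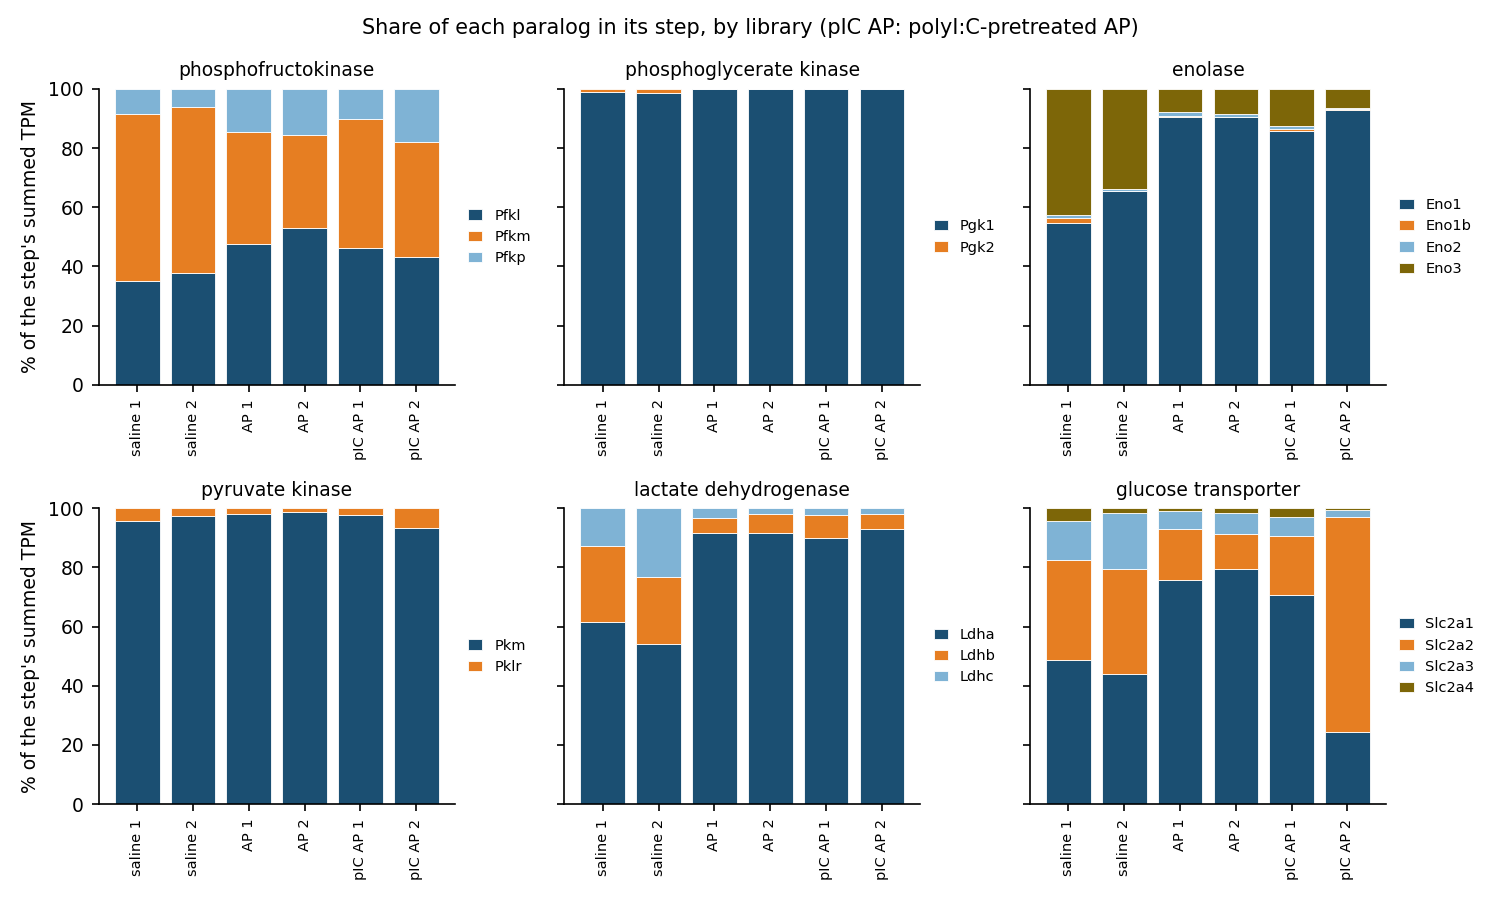
Share (% of summed TPM) of each paralog in 6 steps, as stacked bars for each of the 6 libraries (pIC AP, pretreated mice). Ldha and Eno1 fill more of their steps in AP than in saline libraries, and the last bar of the glucose transporter panel holds the Slc2a2 of the library with intestinal genes.

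The remaining glycolytic enzymes were less uniform than the 10 genes. Of 15 tested, 4 were raised in AP mice (Tpi1, Gapdh, Hkdc1 and Hk3) and 2 reduced (Ldhb and Ldhc). Of all genes 18.2% were raised and 4.03% reduced. The median log2 fold change of this list was 0.14. Tpi1, triosephosphate isomerase, had 123 and 143 TPM in saline mice, 319 and 346 TPM in AP mice and 254 and 287 TPM in pretreated mice. Gapdh, the enzyme between aldolase and phosphoglycerate kinase, had 46.8 and 32.5 TPM, 116 and 117 TPM and 143 and 192 TPM, with 20.9% of its stretches shared with other genes. Both were lowest in saline mice. The call of Ldhc was lost in 6 of 20 alternatives, among them without saline replicate 2, without either AP mouse and without either pretreated mouse. With median-of-ratios scaling 2 genes of this list were raised and 4 reduced.

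Among 14 tested transporters of glucose and lactate outside the 10, 3 were raised in AP mice (Slc16a1, Slc16a3 and Slc2a9) and 1 was reduced (Slc16a7). Of all genes 18.2% were raised and 4.03% reduced. The median of this list was -0.03, and with quantile normalization 1 of its genes was raised. Slc16a3 and Slc2a9 had low levels in saline mice, at 0.762 and 0.187 TPM and at 1.10 and 0.282 TPM. Slc16a1, the lactate transporter MCT1, had 15.8 and 16.7 TPM in saline mice, 49.7 and 51.8 TPM in AP mice and 41.3 and 58.9 TPM in pretreated mice. Slc16a7, the related transporter MCT2, had 40.4 and 46.3 TPM, 8.38 and 9.20 TPM and 16.8 and 16.2 TPM. These lactate carriers thus moved in opposite directions in AP mice, by 1.61 ± 0.17 and -2.24 ± 0.11 on the log2 scale. In pretreated against AP mice Slc16a7 was higher by 0.87 ± 0.11 (adjusted p = 0.025, limma, and from 0.013 to 0.32 over the alternatives), short of 2-fold. Bsg, the partner protein of MCT1, had 205 and 216 TPM in saline mice and 208 and 213 TPM in AP mice. The sodium-coupled glucose transporter gene Slc5a1 had 203 TPM in the library with intestinal genes and at most 12.5 TPM in the others. Leaving that library out kept the median in AP against saline mice at -0.03, as neither group holds it. Fewer genes of this list were then called, with fewer samples in the fit.

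Of 18 genes for pyruvate entry and flux control, 3 were raised in AP mice (Pfkfb3, Pfkfb4 and Tigar) and 1 was reduced (Pdk1). Of all genes 18.2% were raised and 4.03% reduced. The median of this list was 0.43, against 0.45 for all genes. Pfkfb3, which makes an activator of phosphofructokinase, had 3.54 and 1.91 TPM in saline mice, 7.95 and 9.69 TPM in AP mice and 4.65 and 5.17 TPM in pretreated mice. Tigar, whose product breaks that activator down, had 3.65 and 2.99 TPM, 10.3 and 10.4 TPM and 12.1 and 11.8 TPM. Genes of opposite action on phosphofructokinase were both raised, the call of Pfkfb3 being lost without either AP mouse. Pdk1, the kinase that holds back pyruvate dehydrogenase, fell by 1.16 ± 0.14 on the log2 scale (adjusted p = 0.001, limma), from 99.0 and 131 TPM to 52.0 and 49.3 TPM, and without saline replicate 2 it no longer reached 2-fold. The most abundant genes of this list, Dld and Pdhb, subunits of pyruvate dehydrogenase, changed by 0.49 ± 0.08 and 0.55 ± 0.10, near the median of all genes.

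The pentose phosphate pathway branches off after hexokinase and yields NADPH. Of its 8 genes, 4 were raised in AP mice (G6pdx, Pgd, Tkt and Taldo1) and 0 reduced, beside 18.2% and 4.03% of all genes. The median was 1.22. Those 4 were also raised with median-of-ratios scaling. G6pdx, the entry enzyme, had 12.3 and 11.6 TPM in saline mice, 41.1 and 42.4 TPM in AP mice and 45.0 and 46.1 TPM in pretreated mice. Taldo1, transaldolase, had 125 and 154 TPM, 594 and 709.9 TPM and 700.4 and 626 TPM, and rose by 2.22 ± 0.14 on the log2 scale in AP mice (adjusted p = 0.00011, limma). In pretreated against saline mice 6 of the 8 were raised, and 5 without the library with intestinal genes.

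Among 10 glycogen genes tested, 2 were raised in AP mice and 0 were reduced, beside 18.2% and 4.03% of all genes. The 2 were the phosphorylases Pygl (1.10 ± 0.33) and Pygb (1.07 ± 0.15). Neither was raised with median-of-ratios scaling, and the calls were lost in 13 and 6 of 20 alternatives, without AP replicate 2 among them for both. Of 7 gluconeogenesis genes, 0 were raised and 1, pyruvate carboxylase (Pcx), fell by 1.15 ± 0.16 on the log2 scale (adjusted p = 0.0016, limma), a call lost without saline replicate 1. Pck2, the mitochondrial phosphoenolpyruvate carboxykinase and the most abundant of that list, had 688 and 729 TPM in saline mice and 709 and 679.6 TPM in AP mice (-0.03 ± 0.12).

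Genes of the hypoxia and Myc axis, known regulators of this pathway, were mixed. Of 18, 2 were raised in AP mice (Car9 and Ddit4) and 2 reduced (Bnip3 and Pdk1), beside 18.2% and 4.03% of all genes. The median of 0.43 was close to that of all genes. Car9, a carbonic anhydrase, had 5.58 and 1.84 TPM in saline mice, 42.9 and 47.3 TPM in AP mice and 122 and 121 TPM in pretreated mice. Bnip3, a mitophagy receptor, had 62.5 and 72.2 TPM, 20.4 and 21.1 TPM and 23.7 and 18.9 TPM. Both are known hypoxia targets, and they moved in opposite directions. Hif1a, the regulated subunit of hypoxia-inducible factor, had 52.5 and 52.6 TPM in saline mice and 95.7 and 87.4 TPM in AP mice (0.79 ± 0.09, adjusted p = 0.00089, limma), short of 2-fold.

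In pretreated against AP mice 0 genes of these 7 lists were raised or reduced by limma with the 2-fold demand. Car9 had a log2 fold change of 1.42 ± 0.40 (adjusted p = 0.17, limma) and was raised in 5 of 20 alternatives, and Pygl had -1.53 ± 0.33 (adjusted p = 0.095) and was reduced in 2 of 20, limma-voom among them for both. Pgd, the second NADPH-yielding enzyme of the pentose phosphate pathway, had a log2 fold change of 0.67 ± 0.14 (adjusted p = 0.085, limma).

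**Figure D5:**
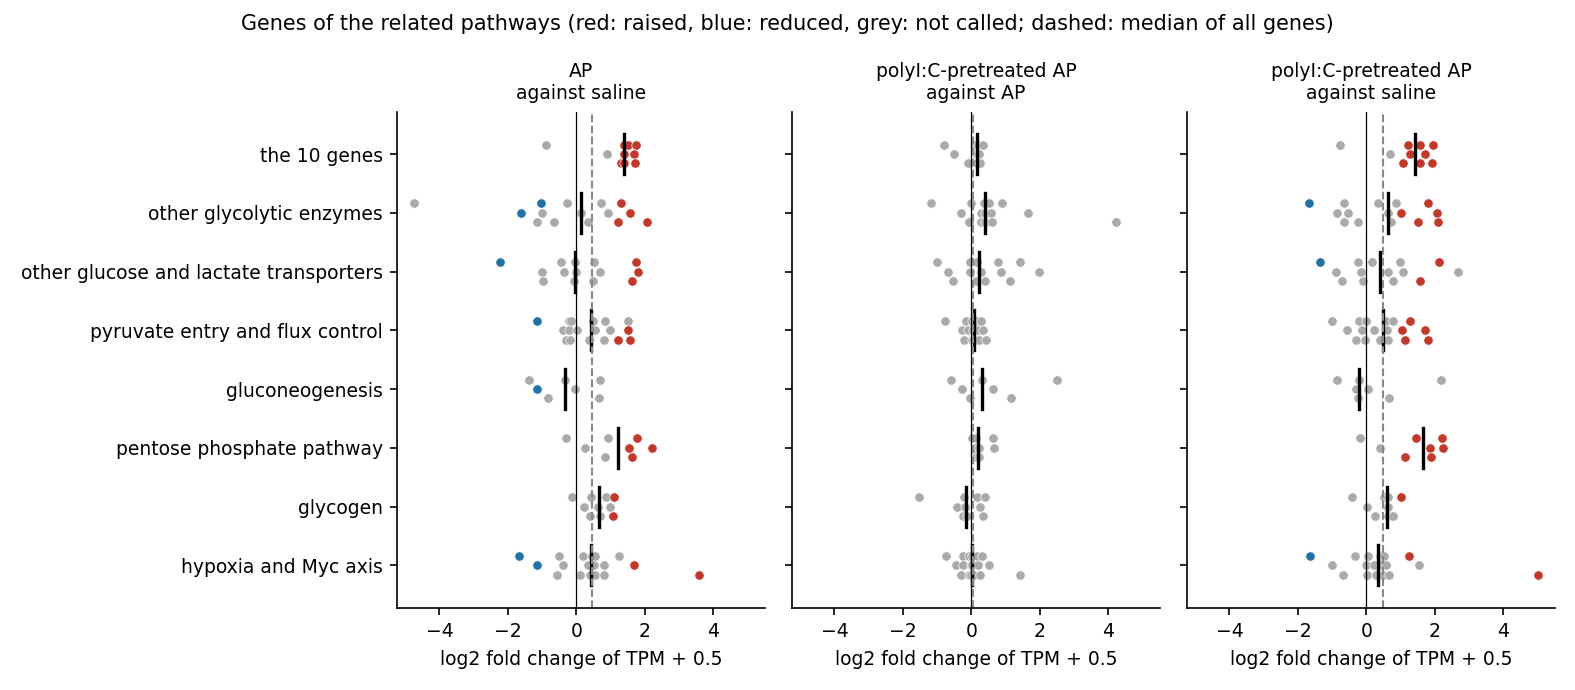
Log2 fold change of TPM + 0.5 for each tested gene of the 10 and of 7 related lists in the 3 comparisons (red, raised; blue, reduced; grey, not called), with list medians as black bars and the median of all genes as a dashed line. In AP against saline mice the median of the 10 genes is 1.40 and that of the pentose phosphate list 1.22, while the other lists have medians from -0.32 to 0.66.

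Genes outside these lists shared the pattern. Among 8386 protein-coding genes outside all lists that averaged 10 TPM or more, Pdcd10 was most like the mean profile of the 10 (Pearson r = 0.9997 over 6 libraries, as a description), followed by Raly, Coro1b, Ccndbp1 and Usp43. Among the 10 themselves, r with their mean profile was -0.94 for Hk2, 0.83 for Slc2a1 and at least 0.95 for the other 8. These points share the libraries and the 3 groups.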

How the data were processed

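RNA from whole pancreas of 6 mice was sequenced, 2 per group. The authors deposited TPM values per gene, 1 table per mouse, for 22556 genes. Per their processing notes, the authors used Trimmomatic, STAR, HTSeq and DESeq2 with the mm10 build. The step to TPM is not given in the sources used here, and the labels name both a ribosomal RNA depletion kit and an mRNA kit. Gene positions were taken from GENCODE M21, which matched 22490 identifiers. Genes averaging 1 TPM or more, 16814 in all, were tested on log2(TPM + 0.5) with limma 3.58.1 (R 4.3.3) in 1 model over all 6 libraries, and p-values were adjusted by the Benjamini-Hochberg method over all of them. Raised and reduced mean an adjusted p of at most 0.05 and at least a 2-fold change. The test was checked on simulated data. Reads were estimated from the spacing of low TPM values, where 46.5% to 61.3% lay within 0.1 of a whole read and 19.5% to 20.5% after lengths were shuffled. Tables were handled with Python 3.11.15. Named genes were the 10, genes of the related lists that passed in AP against saline mice or between the caerulein groups at a mean of 5 TPM or more, abundant genes of each list, and paralogs of the same step. Slc16a3, Slc2a9 and Pfkfb4 lay under that mean and were named after their values were seen. The members and lists were chosen with earlier results of these data known. The labels number 2 samples per group and do not state that each is a separate animal; they are called mice here, and p-values measure only the spread between these samples, which may be technical. Nor do the labels say that same-numbered samples were handled together. Markers without values (Cpa1, Cel, Cela1, Ctrb1, Pnlip, Ly6g and Mpo) were not analysed here. Some paralogs of the hexokinase and aldolase steps, and the shares within those steps, are not reported here.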

Additional observations from a re-analysis of the deposited data

How the results depend on the processing

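Over 20 alternatives, 151 values of the member counts and medians stayed within their tolerance and 23 moved. For a median the tolerance was 0.106, and for a count 6 raised was still within it of 8. Alternatives that change only the prior, the filter, the block or a mouse outside the comparison leave a median as it was. The 151 is thus not a measure of how stable the values were. No median of the 10 genes and no called gene reversed its direction. Medians of other lists could: that of the remaining glycolytic enzymes in AP against saline mice was 0.14, and -0.23 with median-of-ratios scaling. In AP against saline mice, 5 of the 10 genes were raised with median-of-ratios scaling. Hk2 made 1 reduced gene with median-of-ratios scaling, quantile normalization, rescaling without genes above 1% of a library, limma-voom on estimated reads and no fold demand, and also without AP replicate 2. The median was 0.99 (0.9856), 1.03, 1.21 (1.207) and 1.20 (1.203) under those 4 scalings. In pretreated against saline mice, 5 genes were raised with median-of-ratios scaling and 5 with quantile normalization, 1 was reduced under the same 5 settings, and the median was 0.97 (0.9718 and 0.9687), 1.18 (1.182) and 1.18 (1.183).

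Leaving out each mouse in turn gave 7 to 8 raised, 0 to 1 reduced and a median of 1.347 to 1.459 in AP against saline mice, 0 raised, 0 reduced and a median of 0.07205 to 0.2474 in pretreated (polyI:C and caerulein) against AP mice, and 7 to 8 raised, 0 reduced and a median of 1.19 to 1.435 in pretreated against saline mice. With the replicate number as a block, 8, 0 and 8 of the 10 genes were raised in the 3 comparisons and 0 were reduced. Same-numbered libraries did not deviate together (r = 0.0075, -0.00385 and 0.0351 across 16814 genes, which are not independent). Such values cannot show whether same-numbered samples were handled together. Over all genes, the 74 raised and 68 reduced in pretreated against AP mice went to 0 and 0 without AP replicate 1, AP replicate 2 or pretreated replicate 2, with fewer samples in the fit. The low depth of the saline libraries limits Hk1, Slc2a1 and Pfkp most. Where a scaling changed a count, the cause was not tested.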
